A study of Mus musculus with 2 samples.

Results

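Type I interferon response genes were taken as a set of 35 genes listed by symbol, out of the 55487 genes of the expression table. All 35 were found, each under 1 gene ID. The rule that lists them uses no measured value. The cells were CD4+ T cells sorted from the visceral adipose tissue and the spleen of C57BL/6 Foxp3.Cre-YFP mice, labelled Treg-bmal1KO and Treg-bmal1WT and collected at ZT0 or ZT12 (hours after lights on) from reverse-light rooms. Bmal1 is a core activator of the circadian clock. Foxp3.Cre-YFP is a Cre recombinase with a fluorescent tag made under the control of Foxp3, the lineage factor of regulatory T cells (Tregs), and every group carried it. The labels do not describe the Bmal1 allele. A total of 34000 adipose and 32000 splenic cells were sorted, stained with hashing antibodies and pooled into 1 single-cell 3′ expression library with 1 matching hashtag library. The labels tie none of the 6 hashtags in use to a tissue, a genotype or a time. Each hashtag is therefore shown by its number, hashtags are not treated as replicates of a group, and no comparison of KO with WT, of tissues or of times, and no p-value, is given. The intervals below are exact 95% intervals and cover counting error only.

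Type I interferons (interferon-alpha and interferon-beta) bind a receptor of IFNAR1 and IFNAR2, whose kinases JAK1 and TYK2 phosphorylate STAT proteins. STAT2 and IRF9 are parts of the complex ISGF3, which binds the interferon-stimulated response element in front of many antiviral genes. Many of these genes also keep a low tonic level in resting T cells, and some respond to interferon-gamma as well.

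Of 22960 barcodes in the expression library, 22952 were also in the hashtag library. After filtering, 13599 cells carried 1 hashtag, and 12939 of these passed a T cell gate (at least 2 UMIs of T cell genes and fewer than 3 of B cell, macrophage, endothelial or stromal genes), with 45170218 UMIs in all. Median depth over the hashtags' T cells lay between 2799 and 3770 UMIs, and was deepest in hashtags 5 and 6. T cells were then sorted by transcript into an Il1rl1 gate (2543 cells with a UMI of Il1rl1, the gene of the IL-33 receptor ST2), a Foxp3 gate without Il1rl1 (388 cells), a Cxcr5 gate (457 cells), a Cxcr3 gate (3019 cells), a naive gate (3029 cells with at least 3 of 7 naive T cell genes) and 3503 remaining cells. Each gate holds only cells that did not enter an earlier one. No gating gene is a member of the set. A gate is a range of transcript counts rather than a cell type. Only 380 of the 2543 cells in the Il1rl1 gate had a Foxp3 UMI, so the Il1rl1 gate is not called a Treg population. In hashtags 5 and 6 the Il1rl1 gate held just 155 and 99 cells, which carried a mean of 1.06 and 1.17 Il1rl1 UMIs. In hashtags 1 to 4 the mean was 2.36 to 2.77. Klrg1, a gene of ST2-positive tissue T cells, was seen in 10.97% and 7.07% of the Il1rl1 gate in hashtags 5 and 6, against 66.04% to 80.6% in hashtags 1 to 4.

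RefSeq promoter sequences (GRCm38.p6, from 250 bases before to 50 after a start site) were on hand for 28 of the 35 genes. The other 7 are Mx1, Mx2, Oas2, Parp14, Rtp4, Usp18 and Zbp1. The core of the interferon-stimulated response element was searched as GAAANNGAA on both strands, where overlapping matches were counted separately. It occurred in 17 of the 28 members (60.7%), against 9.76% of 27025 genes in the table. At least 2 matches occurred in 10 of the 28 members, against 0.736% of all genes. Of the 31 matches over the members' 34 promoter entries, 23 began within 150 bases upstream of the start site. The 180 bases before the start site are printed for 6 members with matches and for Epsti1, which has none. Ifit1, Ifit3 and Isg15 choose a group of cells described later, Rsad2, Bst2 and Slfn5 are higher in those cells than in T cells with none of the 3, and Epsti1 is the 1 member called between the Il1rl1 and Cxcr3 gates. The stretches lie before the start site of the promoter entry. For Ifit3 and Slfn5 the annotated gene begins further upstream, so theirs lie within the gene's span. All run 5′ to 3′ on the strand of the gene with each match in capitals (TTCNNTTTC is the same motif read on the other strand). They lie at chr4:156200819-156200998 for Isg15 (minus strand), chr19:34640709-34640888 for Ifit1 (plus strand), chr19:34583349-34583528 for Ifit3 (plus strand), chr12:26456453-26456632 for Rsad2 (minus strand), chr8:71537473-71537652 for Bst2 (minus strand), chr11:82951922-82952101 for Slfn5 (plus strand) and chr14:77904059-77904238 for Epsti1 (plus strand).
Isg15: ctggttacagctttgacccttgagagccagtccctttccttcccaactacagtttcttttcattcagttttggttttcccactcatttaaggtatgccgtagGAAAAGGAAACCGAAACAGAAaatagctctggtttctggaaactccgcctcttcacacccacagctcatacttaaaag
Ifit1: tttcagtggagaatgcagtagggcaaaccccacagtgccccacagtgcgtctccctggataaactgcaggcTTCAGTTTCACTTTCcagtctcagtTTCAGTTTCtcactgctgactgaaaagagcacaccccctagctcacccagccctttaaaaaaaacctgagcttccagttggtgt
Ifit3: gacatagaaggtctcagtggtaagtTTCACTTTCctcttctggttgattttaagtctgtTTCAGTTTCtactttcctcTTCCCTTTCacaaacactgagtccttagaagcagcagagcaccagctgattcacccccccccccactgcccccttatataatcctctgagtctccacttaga
Rsad2: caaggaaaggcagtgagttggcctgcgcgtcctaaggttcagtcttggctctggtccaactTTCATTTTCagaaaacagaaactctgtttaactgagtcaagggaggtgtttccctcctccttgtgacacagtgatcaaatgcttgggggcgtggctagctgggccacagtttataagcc
Bst2: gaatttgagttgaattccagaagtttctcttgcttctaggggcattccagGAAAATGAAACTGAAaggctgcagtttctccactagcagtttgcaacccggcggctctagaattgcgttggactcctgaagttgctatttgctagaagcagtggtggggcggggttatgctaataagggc
Slfn5: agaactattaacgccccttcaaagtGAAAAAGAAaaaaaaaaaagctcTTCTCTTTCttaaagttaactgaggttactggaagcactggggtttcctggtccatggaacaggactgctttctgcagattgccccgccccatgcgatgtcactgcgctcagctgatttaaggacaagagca
Epsti1: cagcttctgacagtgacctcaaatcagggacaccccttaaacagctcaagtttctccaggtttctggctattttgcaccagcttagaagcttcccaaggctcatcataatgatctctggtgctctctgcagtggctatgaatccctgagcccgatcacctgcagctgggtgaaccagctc
Isg15, Ifit1 and Ifit3 hold 3 matches each in these stretches, Bst2 and Slfn5 hold 2, and Rsad2 holds 1. In Isg15 the 3 matches overlap into a single block. The matches describe these letters and say nothing of binding in these cells.

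UMI counts summed over the cells of a hashtag or gate were scaled to CPM (UMIs per 1000000 UMIs). In this 3′ assay a transcript gives 1 tagged end whatever its length, so CPM is not scaled by length, and levels are compared between cells for the same gene. Over all T cells the 35 genes together made up 1403 CPM (1392 to 1414). By hashtag, from 1 to 6, their sum was 1367, 1248, 1313, 1192, 1625 and 1377 CPM. Hashtag 5 stood highest, and the highest and lowest hashtags differed 1.36-fold. In all, 26 members reached 10 CPM in at least 1 gate and 9 did not.

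The 3 members that carry the signal to DNA were present in every hashtag. Stat2, the STAT that gives ISGF3 its activation domain, had 18.2, 18.4, 19.999, 17.8, 17.5 and 21.4 CPM in the T cells of hashtags 1 to 6. Irf9, the DNA-binding part of ISGF3, had 39.5, 33.8, 32.5, 33.0, 59.5 and 49.5 CPM. Irf7, a factor that amplifies interferon production and is itself induced, had 29.3, 24.7, 29.1, 27.6, 31.5 and 28.4 CPM. Stat2 and Irf7 were level across hashtags, with 1.23-fold and 1.28-fold between the highest and the lowest, whereas Irf9 was highest in hashtags 5 and 6.

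Sensors of foreign nucleic acid form the next group. Ifih1 encodes MDA5, a sensor of long double-stranded RNA, and had 10.8, 7.04, 8.48, 6.89, 12.4 and 11.1 CPM in hashtags 1 to 6. Ddx58 encodes RIG-I, a sensor of RNA ends, and had 31.0, 25.8, 30.1, 30.9, 40.1 and 34.5 CPM. Ddx60, a helicase linked to RIG-I signalling, had 13.0, 9.98, 11.4, 14.3, 19.6 and 18.3 CPM. All 3 helicases had their highest value in hashtag 5. Zbp1, a sensor of Z-form nucleic acid that can start necroptosis, had 53.1, 50.3, 53.0, 43.5, 72.9 and 65.2 CPM, again highest in hashtags 5 and 6.

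The ISG15 system attaches the ubiquitin-like protein ISG15 to other proteins. Isg15 had 47.6, 46.2, 31.999, 27.1, 62.7 and 48.0 CPM in hashtags 1 to 6, a 2.31-fold spread with hashtags 3 and 4 lowest. Usp18 removes ISG15 and also damps signalling at IFNAR2, and had 6.90, 7.63, 9.12, 5.70, 19.8 and 14.4 CPM. Hashtags 5 and 6 lay above the other 4 for Usp18, and the spread was 3.47-fold. Herc6, the main ISG15 ligase in mice, was even, at 21.9, 20.2, 19.7, 25.4, 24.0 and 23.6 CPM.

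Most of the direct antiviral effectors were rare. Ifit1, whose product binds viral RNA lacking host cap marks, had 12.4, 9.98, 7.68, 6.18, 21.2 and 13.4 CPM in hashtags 1 to 6. Its neighbour Ifit2 had 7.88, 6.65, 7.68, 5.23, 15.1 and 10.5 CPM. Both Ifit genes were highest in hashtag 5. Oas3, an oligoadenylate synthetase that activates RNase L, had 8.21, 8.22, 8.80, 7.84, 8.93 and 6.72 CPM, and passed 10 CPM only in the Cxcr3 gate. Eif2ak2, the kinase PKR that stops translation on double-stranded RNA, had 10.8, 9.98, 9.92, 10.7, 7.64 and 6.47 CPM. For Eif2ak2 it was hashtags 5 and 6 that were lowest. The 9 members under 10 CPM in every gate were Ifit3, Rsad2, Mx1, Mx2, Oas1a, Oas2, Oasl1, Oasl2 and Ifi44, which lay between 0.731 CPM (Mx2) and 4.54 CPM (Rsad2) over all T cells, or 33 to 205 UMIs. Ifit3 has a near-identical neighbour, Ifit3b, and Oas1a, Trim30a, Ifi203 and Ifi213 also have close copies, so reads may have been split or lost between copies. Mx1 is known to be non-functional in C57BL/6 mice because part of its coding sequence is deleted, so its UMIs report transcription alone.

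Other effectors were common. Bst2, the tetherin that holds budding virus at the cell surface, had 98.2, 111, 96.8, 112, 103 and 94.0 CPM, a spread of only 1.19-fold. Isg20, an RNA exonuclease, had 42.5, 44.8, 29.4, 38.5, 32.02 and 26.5 CPM. Trim30a, a TRIM protein that restrains inflammatory signalling in mice, had 70.3, 55.6, 67.2, 59.9, 86.0 and 76.8 CPM. Bst2 was highest in hashtags 2 and 4 and Isg20 in hashtags 1 and 2, whereas Trim30a was highest in hashtag 5. For each of these genes the intervals overlapped that of the next hashtag, so the order lies within counting error. Ifi203, a PYHIN-family gene, carried the most UMIs of the set (11999) and had 254, 225, 254, 216, 323 and 252 CPM. Its relative Ifi213 had 18.9, 15.3, 21.0, 14.5, 30.3 and 27.3 CPM. Ifi47, an immunity-related GTPase that interferon-gamma also induces, had 123, 106, 136, 112, 202 and 174 CPM. Those 3 genes shared hashtag 5 as their highest. Slfn5, a Schlafen family member, had 56.4, 60.3, 44.3, 51.3, 57.2 and 48.0 CPM. Parp14, a mono-ADP-ribosyltransferase, had 61.7, 59.3, 62.7, 58.7, 81.2 and 69.1 CPM. Parp14 was highest in hashtag 5 and Slfn5 in hashtag 2. The Slfn5 interval of hashtag 2 (53.7 to 67.4 CPM) overlapped that of hashtag 5 (53.1 to 61.6 CPM).

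Among members with less settled roles, Epsti1 went the other way. Epsti1, named for its induction by contact between epithelial and stromal cells, had 204, 173, 203, 154, 143 and 127 CPM, with hashtags 5 and 6 lowest. Xaf1, which binds the apoptosis inhibitor XIAP, had 33.4, 29.5, 28.5, 28.5, 34.9 and 26.9 CPM. Rtp4, a chaperone of receptor transport, had 17.1, 13.3, 11.2, 12.4, 31.2 and 26.6 CPM, a 2.79-fold spread with hashtags 5 and 6 above the other 4. In the naive gate alone that order did not hold. Hashtags 1 and 2 had 29.3 and 34.7 CPM there (19 and 10 UMIs), against 28.8 and 25.1 CPM in hashtags 5 and 6. Ifi35, a partner of NMI, had 56.4, 52.6, 57.0, 57.7, 62.7 and 55.6 CPM and was flat, at 1.19-fold.

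**Figure D1:**
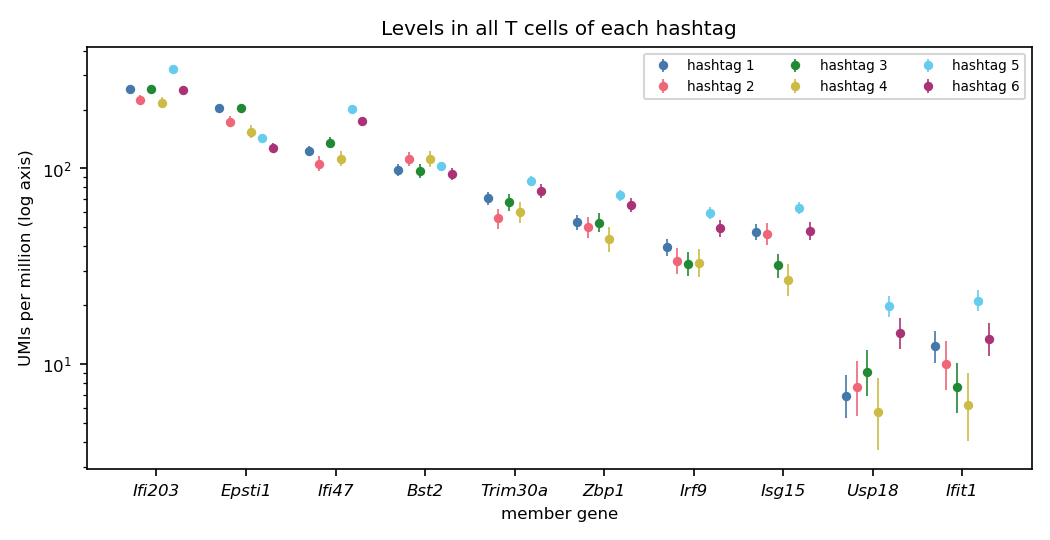
CPM (log axis) of 10 members in all T cells of each hashtag, with points in the order of hashtags 1 to 6 and bars for exact 95% Poisson intervals. Usp18 and Ifit1 are highest in hashtag 5 (19.8 and 21.2 CPM), whereas Epsti1 is lowest in hashtags 5 and 6.

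Gates differed in the summed level of the set, a sum that leans on its most abundant members. Of its 63358 UMIs in T cells, Ifi203 gave 11999, Epsti1 7458, Ifi47 6897 and Bst2 4571. Epsti1 alone had 274 CPM in the Cxcr3 gate, 190 CPM in the remaining cells and 160 CPM in the Foxp3 gate. It had 127 CPM in the Cxcr5 gate, 120 CPM in the naive gate and 96.5 CPM in the Il1rl1 gate. Pooled over hashtags, the Il1rl1 gate had the lowest sum, at 1073 CPM (1053 to 1093). The sum was 1494 CPM (1429 to 1562) in the Foxp3 gate, 1375 CPM (1320 to 1432) in the Cxcr5 gate, 1595 CPM (1571 to 1620) in the Cxcr3 gate, 1417 CPM (1397 to 1438) in the naive gate and 1534 CPM (1508 to 1560) in the remaining cells. Hashtags enter these pools unequally, since hashtags 5 and 6 gave 155 and 99 of the Il1rl1-gated cells but 1453 and 990 of the naive-gated cells. Within hashtags 1 to 6 the sum was 1089, 1009, 1052, 937, 1627 and 1247 CPM in the Il1rl1 gate, against 1285, 1336, 1306, 1384, 1545 and 1286 CPM in the naive gate. The Il1rl1 gate was lower in 5 of the 6 hashtags and higher in hashtag 5. The Cxcr3 gate, at 1581, 1561, 1502, 1479, 1771 and 1567 CPM, was above the Il1rl1 gate in each hashtag. Of the 35 members, 22 had their lowest pooled level in the Il1rl1 gate, while Isg20 (53.5 CPM) and Bst2 (114 CPM) had their highest there. The count of 22 takes in members under 10 CPM that rest on few UMIs. The share of all genes lowest in that gate was not measured, so the count is not read as particular to the set. The part of the Il1rl1 gate with a Foxp3 UMI had 1013 CPM (967 to 1060) and the part without had 1085 CPM (1063 to 1108). Barcodes gated as other lineages had 3619 CPM (3131 to 4161) in 14 macrophage-gated cells, 2671 CPM (2448 to 2910) in 51 endothelial-gated cells and 1123 CPM (879 to 1414) in 9 stromal-gated cells. These sums rest on few cells or genes. In the macrophage gate 2 cells gave all 29 UMIs of Isg15 and 1 cell all 11 of Mx1. In the endothelial gate Slfn5 gave 125 and Bst2 96 of the 526 UMIs. The intervals do not cover differences between cells. No cell type is known to lack the whole set, so there is no negative cell type for it, and free RNA in droplets adds to the rare members in all gates to an extent that was not tested. For Ifi47 and Epsti1 the level was lower in endothelial-gated cells than in T cells. Ifi47 had 153 CPM (149 to 156) and was seen in 36.3% of T cells, against 45.7 CPM (20.9 to 86.8) and 8 of 51 endothelial-gated cells (15.7%). Epsti1 had 165 CPM (161 to 169) and was seen in 35.7% of T cells, against 5.08 CPM (0.129 to 28.3) and 1 of 51 endothelial-gated cells (1.96%). Median depth was 3168 UMIs in T cells and 3272 in endothelial-gated cells. At 2000 UMIs per cell the shares were 25.9% of T cells and 1 of 37 endothelial-gated cells for Ifi47, and 25.7% of T cells and 0 of 37 for Epsti1, which allows a share of up to 8.11%.

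**Figure D2:**
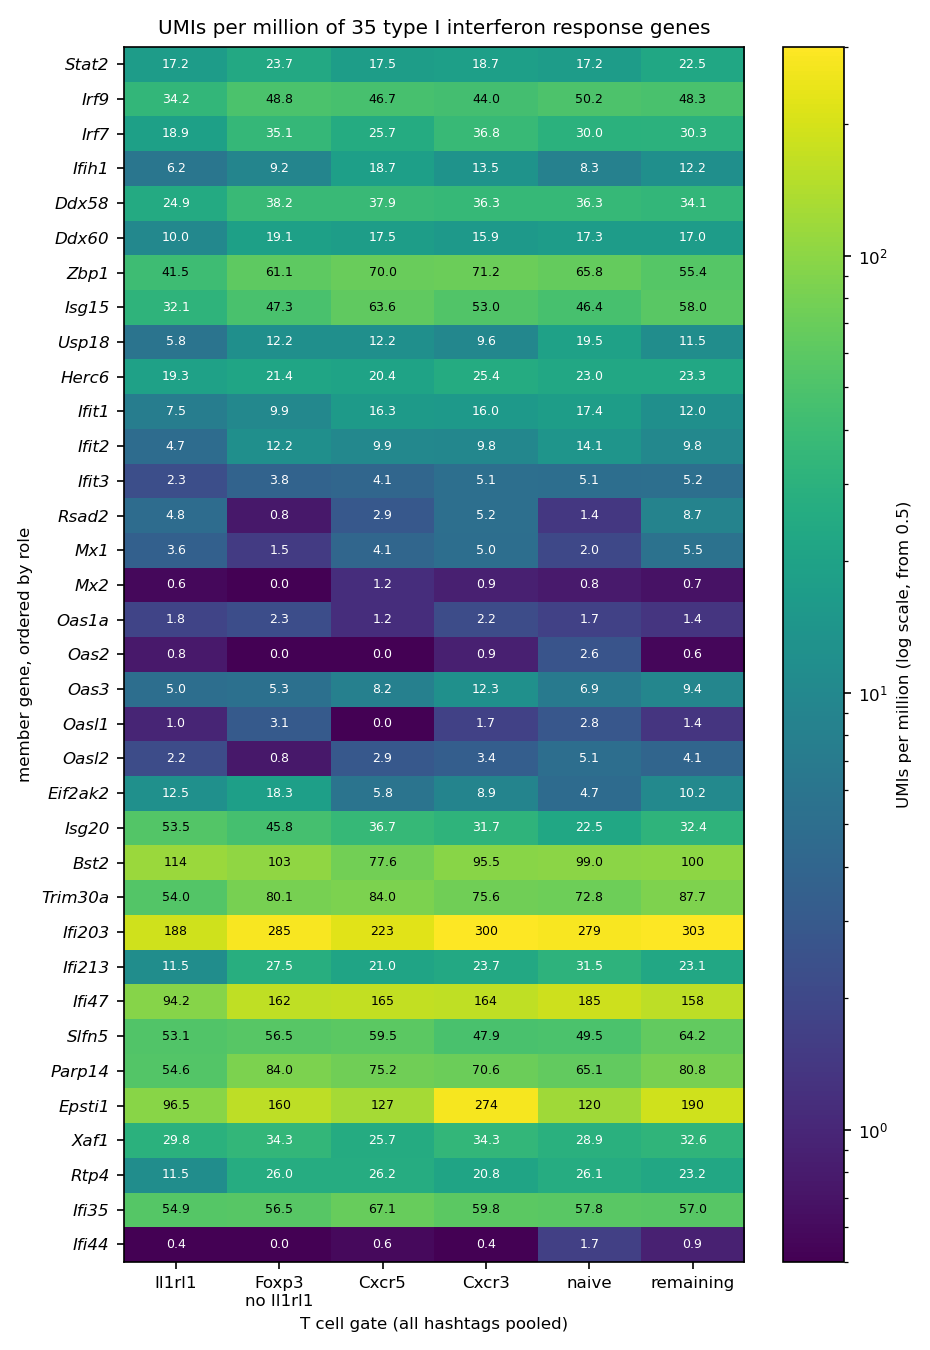
Pooled CPM of the 35 members (rows, ordered by role) in the 6 T cell gates (columns), with colour on a log scale from 0.5. The Il1rl1 column is the lowest for 22 of the 35 genes, a count for which no share of all genes was measured. Epsti1 is highest in the Cxcr3 column at 274 CPM.

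Within hashtags, cells of the Il1rl1 gate had less of most members than cells of the Cxcr3 gate of the same hashtag. For each gene the log2 ratio of CPM was taken inside each hashtag with at least 50 cells on both sides (prior count 0.5), and the median over hashtags is given. A gene was called where that median passed 1 or -1 and all hashtags shared 1 sign. Genes at 10 CPM or more in the mean of both gates were compared, which kept 22 members. A member just above that limit may have passed through its higher gate. The members' median was -0.37, against -0.02 for all 7644 genes, and each of the 6 hashtags had a member median below 0 (-0.58 to -0.11). With no limit on level the median over all 35 members was -0.31, against 0.05 for all genes. Of the 22 members, 16 lay below 0, as did 54.3% of all genes. Below 0 in every hashtag were 9 of the 22, against 7.95% of all genes. These 9 were Epsti1, Ifit1, Irf7, Isg15, Zbp1, Ifi213, Ifi203, Herc6 and Trim30a. Only Epsti1 was called, in a background of 0.798% of genes called lower and 1.11% called higher.

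Epsti1 had 101, 77.5, 130, 67.3, 125 and 130 CPM in the Il1rl1 gate of hashtags 1 to 6, against 312, 353, 293, 312, 204 and 193 CPM in their Cxcr3 gate. The 2 gates did not overlap. The log2 ratio was -1.39 (-2.21 to -0.56 over hashtags), and Epsti1 was called under all 14 alternatives run for this comparison, from -2.14 to -1.17. Irf7 had 21.8, 14.4, 16.5, 20.8, 21.1 and 22.1 CPM in the Il1rl1 gate, against 36.7, 39.2, 35.7, 39.1, 36.6 and 35.4 CPM in the Cxcr3 gate. Again no hashtag's value in the Il1rl1 gate reached any in the Cxcr3 gate, and the log2 ratio was -0.84 (-1.44 to -0.62). The share of all genes whose gates separate in this way was not measured. The separation is therefore not read as particular to Epsti1 and Irf7. Isg15 had 42.6, 35.2, 21.6, 18.8, 43.8 and 30.9 CPM in the Il1rl1 gate, against 49.6, 60.0, 38.9, 43.0, 69.6 and 53.4 CPM in the Cxcr3 gate. Isg15 was lower in the Il1rl1 gate of every hashtag (log2 ratio -0.76, -1.20 to -0.22), although the ranges of the 2 gates overlapped. Isg20 ran the other way in hashtags 1 to 4 only. It had 62.7, 62.4, 49.0, 47.5, 25.9 and 26.5 CPM in the Il1rl1 gate, against 33.7, 21.8, 22.6, 27.4, 39.8 and 37.5 CPM in the Cxcr3 gate. Its log2 ratio was 0.83 with a range over hashtags of -0.58 to 1.495, and hashtags 5 and 6 were the ones below 0.

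**Figure D3:**
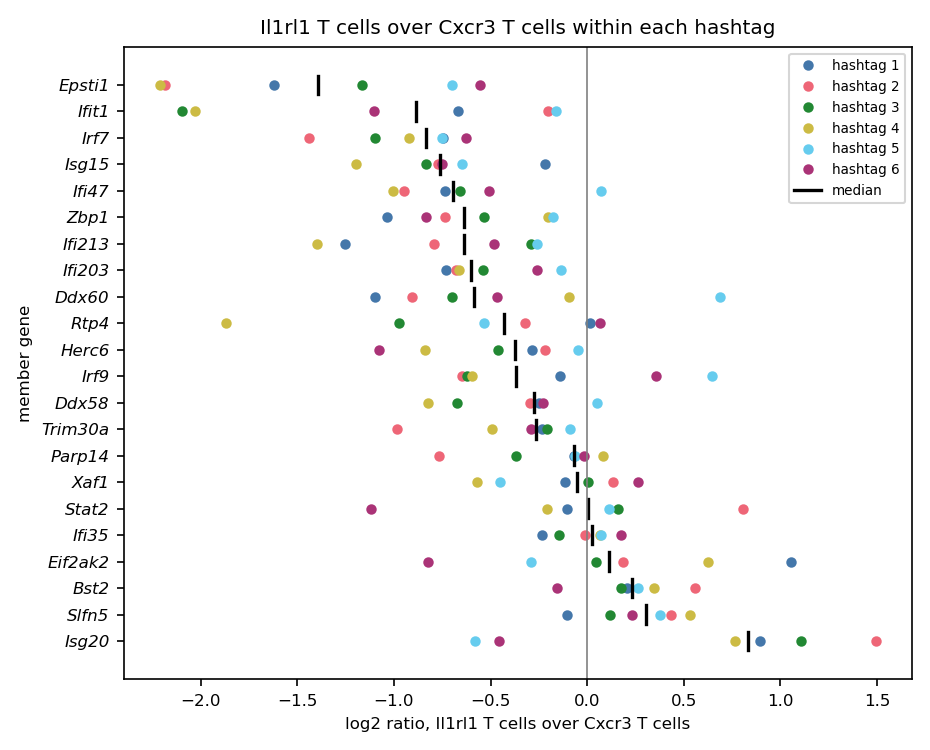
log2 ratio of CPM in the Il1rl1 gate over the Cxcr3 gate (x axis) for the 22 members compared (y axis), with 1 point per hashtag and a black bar at the median. Epsti1 lies lowest, with its median at -1.39, and Isg20 highest, with its median at 0.83 and the points of hashtags 5 and 6 below 0.

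Against the naive gate, the Il1rl1 gate gave a smaller and less even difference. The median over 22 members was -0.27 (-0.55 to 0.09 over hashtags), while that of 7437 genes was 0.16. Of the 22 members 18 lay below 0, against 33.4% of genes, and 2 of them, Ifi213 and Ifi47, were below 0 in every hashtag, against 4.83% of genes. Isg20 was the 1 member above 0 in every hashtag (log2 ratio 0.93), where 19.7% of genes were, and 3 of 14 alternatives called it. In the main setting no member was called, where 1.04% of genes were called lower and 5.1% higher. Ifi47 had 87.2, 77.5, 100, 80.1, 195 and 135 CPM in the Il1rl1 gate of hashtags 1 to 6, against 131, 121, 167, 129, 210 and 171 CPM in the naive gate. Its difference was largest in hashtags 1 to 4 and the log2 ratio was -0.63 (-0.74 to -0.11). Usp18 had a median of -1.36 but a range of -2.20 to 0.01. TMM scaling, which centres most genes on 0, gave -0.43 for the members and -0.01 for all genes. In the other 3 comparisons with the naive gate, TMM put the all-gene medians of 0.19, 0.27 and 0.27 at -0.01 (Cxcr3), 0.04 (Foxp3) and 0.01 (Cxcr5). Directions against the naive gate are therefore read relative to all genes. When the Il1rl1 gate was limited to cells with at least 2 Il1rl1 UMIs, a choice made after the low counts in hashtags 5 and 6 had been seen, only hashtags 1 to 4 had 50 cells. The members' median was then -0.56 against the Cxcr3 gate and -0.45 against the naive gate, with no hashtag above -0.29 and -0.36.

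Cells of the Cxcr3 gate, the chemokine receptor of Th1 cells, differed little from naive-gated cells in the set as a whole. The median over 24 members was 0.10 (-0.07 to 0.22), below the 0.19 of 7375 genes, and TMM scaling put it at -0.09. No member was called, where 3.09% of genes were called higher and 0.719% lower. Epsti1 came closest, with the Cxcr3 gate values above against 148, 97.2, 127, 181, 123 and 106 CPM in the naive gate of hashtags 1 to 6. The lowest Cxcr3-gate value (193 CPM) was above the highest naive-gate value (181 CPM), but the share of all genes that separate so was not measured. The log2 ratio of Epsti1 was 0.97 (0.74 to 1.84), and 7 of 13 alternatives called it. Isg15, Ifih1 and Trim30a were also higher in the Cxcr3 gate of all 6 hashtags, by a median log2 of 0.52, 0.49 and 0.11. Trim30a thereby lay below the all-gene median of 0.19. With Epsti1 these made 4 of 24 members above 0 in every hashtag, against 23.9% of genes, so the count is under its background. Ifih1 was under 10 CPM in the naive gate and was compared because of its level in the Cxcr3 gate.

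Foxp3-expressing cells were compared with the naive gate and with all other T cells. In the Foxp3 gate without Il1rl1, compared with the naive gate in hashtags 1, 3, 5 and 6, the median over 24 members was 0.23 (-0.06 to 0.43), close to the 0.27 of 7435 genes, and it was -0.02 with TMM scaling. Eif2ak2 (PKR) was the 1 of 24 members called, with 5.96% of genes called higher and 0.672% lower. It had 18.6 CPM in the Foxp3 gate and 4.46 CPM in the naive gate, from 20 and 53 UMIs, at a log2 ratio of 2.07 (1.72 to 2.93). It was called under 9 of 11 alternatives, and was under 10 CPM, so not compared, without hashtag 5 and in thinned cells. Its level in the naive gate is below the 10 CPM limit, so it was compared because of its level in the Foxp3 gate, and the call is a description. When all 768 T cells with a Foxp3 UMI were set against the 12171 other T cells, the members' median was -0.02, and its sign changed between alternatives. Eif2ak2 was again the 1 member called, where 0.707% of genes were called higher and 0.393% lower. It had 17.1 CPM in Foxp3 cells and 8.34 CPM in the others (53 and 351 UMIs), was higher in all 6 hashtags at a log2 ratio of 1.21 (0.26 to 1.78), and was called under all 13 alternatives. Here too it reached the limit through the Foxp3 cells alone. Isg20 was higher in all 6 hashtags too, at 57.7 CPM in Foxp3 cells and 33.2 CPM in the others (log2 ratio 0.65, 0.10 to 1.21). These made 2 of 22 members above 0 in every hashtag, where 9.01% of genes were, a share near the background.

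The Cxcr5 gate, in which follicular helper cells would fall, could be compared with the naive gate in hashtags 5 and 6 alone. The median over 24 members was -0.11, below the 0.27 of 7332 genes, and it turned to 0.12 when cells were thinned to 2000 UMIs and to 0.03 without hashtag 6. Ifih1 was called, where 7.73% of genes were called higher and 0.791% lower. It had 18.6 CPM in the Cxcr5 gate and 8.35 CPM in the naive gate (24 and 87 UMIs), with a log2 ratio of 1.25 that came to 0.98 with TMM scaling. It too was under 10 CPM in the naive gate and was compared because of its level in the Cxcr5 gate. With TMM the members' median was -0.38.

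Since the mix of gates differed between hashtags, hashtags were also compared within a gate. Hashtag 5 was higher than the other hashtags together in most members in both large gates. In the naive gate 20 of 23 members were above 0, against 57.4% of genes, with a members' median log2 of 0.21 and an all-gene median of 0.03. In the Cxcr3 gate 22 of 25 were above 0, against 47.3% of genes, with medians of 0.34 and -0.02. Ifit1 was 0.93 higher in hashtag 5 on the log2 scale in the naive gate and 0.66 higher in the Cxcr3 gate. Usp18 was 0.67 and 0.64 higher in the same gates, and Isg15 0.51 and 0.52 higher. For Usp18, hashtag 5 was not the highest single hashtag in either gate. In the naive gate hashtag 3 had 26.8 CPM (22 UMIs) and hashtag 5 had 24.2 CPM. In the Cxcr3 gate hashtag 6 had 14.4 CPM and hashtag 5 had 13.3 CPM. In the naive gate most cells set against hashtag 5 came from hashtag 6. The 3 members below 0 in the naive gate were Stat2 (-0.52), Herc6 (-0.15) and Ddx60 (-0.05). Those in the Cxcr3 gate were Epsti1 (-0.52) and, next to 0, Irf7 (-0.0016) and Bst2 (-0.0038). In the naive gate of hashtag 6, 3 of 23 members were above 0, against 30.1% of genes, with medians of -0.16 for the members and -0.09 for all genes. In its Cxcr3 gate 16 of 24 were above 0, against 41.3% of genes, with medians of 0.12 and -0.06. Relative to all genes the members were thus higher in the Cxcr3 gate of hashtag 6. In the naive gate hashtag 5 gave 1453 of the cells, so hashtag 6 was there set mostly against hashtag 5. The sum of the set in that gate was 1286 CPM in hashtag 6 and 1545 CPM in hashtag 5. Hashtags 1 to 4 had 1285, 1336, 1306 and 1384 CPM. The low count in the naive gate of hashtag 6 is therefore not read as a difference apart from that of hashtag 5. Median depth was 3465 UMIs in T cells of hashtag 5 and 3770 in those of hashtag 6. The part of tissue, genotype, time or depth in these differences was not tested.

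Counted per cell, the set was sparse. To compare cells at equal depth, 10755 T cells with at least 2000 UMIs were thinned to exactly that number. This kept 997 to 3065 cells per hashtag, with 2243 of 2543 in the Il1rl1 gate, 2568 of 3019 in the Cxcr3 gate and 2918 of 3029 in the naive gate. The median cell then showed 2 of the 35 members and the highest showed 26. At least 8 members were seen in 1.33% of cells, and in 1.06%, 1.01%, 0.769%, 0.702%, 2.15% and 1.26% of the cells of hashtags 1 to 6. Ifi203 was seen in 39.5% of cells, Ifi47 in 25.9%, Epsti1 in 25.7% and Bst2 in 17.6%, while Rsad2 was seen in 0.660% and Mx2 in 0.130%.

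Members tended to be seen together in single cells. For each member the number of other members detected in its cells was set against the number in cells without it, of the same hashtag and gate. The ratio was above 1 for all 35 members. It was 2.57 for Mx2, 2.20 for Rsad2, 2.19 for Ifit3 and 2.13 for Ifit1. Mx2 rests on 14 cells. At the other end, Ifi47 and Epsti1 had 1.12 and Ifi203 had 1.18. Among less often seen members, Oas1a (33 cells) had 1.17 and Ifit2 (218 cells) had 1.15. Over the 28 members with a promoter entry, the median ratio was 1.30 (1.13 to 2.20) for the 17 with the motif and 1.20 (1.12 to 1.79) for the 11 without, so the ranges overlapped. Among pairs, 424 of 595 had at least 3 expected cells with both genes. Of these, 388 lay above 1, 171 had an interval wholly above 1 and 0 had one wholly below. Genes and pairs outside the set were not measured in this way. The counts of members and pairs above 1 therefore have no background and are not read as particular to the set. The tightest was Ifit1 with Rtp4, seen together in 50 cells against 10.0 expected (ratio 4.99, 3.71 to 6.58). Ifit1 with Usp18 had 30 cells against 6.61 (ratio 4.54, 3.06 to 6.48), and Ifit3 with Isg15 had 30 against 6.70 (ratio 4.48, 3.02 to 6.40).

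**Figure D4:**
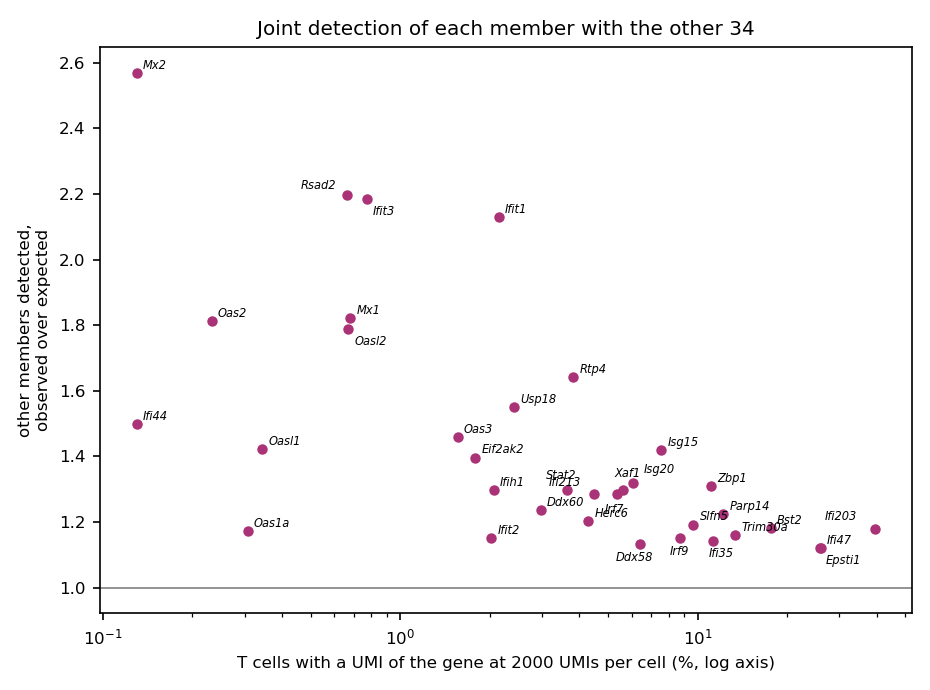
Share of T cells with a UMI of each member at 2000 UMIs per cell (x axis, log) and the number of other members seen in those cells as a ratio to the number in cells without it of the same hashtag and gate (y axis). Mx2, Rsad2, Ifit3 and Ifit1 lie above 2, and Ifi47 and Epsti1 lie lowest at 1.12.

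Cells with several of the 3 genes Ifit1, Ifit3 and Isg15 were taken as a group. At least 2 of Ifit1, Ifit3 and Isg15 were seen in 93 of 10755 thinned T cells (0.865%, 0.698% to 1.06%), while 9742 cells had none of the 3. By hashtag, from 1 to 6, the share was 0.970%, 0.676%, 0.349%, 0.401%, 1.37% and 0.680%. Hashtag 5 held 42 of the 93 cells, and without it the share was 0.663%. By gate the share was 0.490% (0.245% to 0.876%) in the Il1rl1 gate, 0.321% (1 cell) in the Foxp3 gate, 1.25% (0.408% to 2.90%) in the Cxcr5 gate, 1.01% (0.662% to 1.48%) in the Cxcr3 gate and 0.994% (0.667% to 1.42%) in the naive gate. Such cells were seen in every gate, and the interval of the Il1rl1 gate overlapped those of the Cxcr5, Cxcr3 and naive gates.

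The other 32 members, which were not used to choose these cells, were nearly all higher in them than in the T cells with none of the 3, with the expected counts taken within hashtags. Observed UMIs exceeded the expected number for 30 of the 32, and the other 2, Ifi44 and Oas1a, had 0 UMIs in the 93 cells and under 1 expected. The median log2 ratio over all 32 was 2.25. To keep the choice of genes apart from the difference, the 22 that reached 10 CPM over all T cells were also taken alone. All 22 were above 0, 20 were at least 2-fold higher and their median was 2.14, while the median of 7515 genes was -0.04 and 3.1% of genes were at least 2-fold higher. With the limit set on the mean of both groups of cells instead, 29 members were compared and 27 were at least 2-fold higher, where 5.55% of genes were 2-fold higher and 6.18% 2-fold lower. That limit lets in rare members through the 93 cells alone, so these counts support nothing. Of the 22 members, 22 were above 0 within hashtag 1 (21 such cells; median 2.11, against -0.11 for all genes) and 21 within hashtag 5 (42 cells; median 1.86, against -0.05). The other 4 hashtags held 4 to 13 such cells each.

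Rsad2, or viperin, which makes a chain-terminating nucleotide, had 25 UMIs in these cells against 0.606 expected (ratio 41.2, 26.7 to 60.9). Mx2 had 5 against 0.105 (ratio 47.6, 15.5 to 111), and Mx1 had 13 against 0.556 (ratio 23.4, 12.5 to 40.01). Usp18 had 34 against 2.26 (ratio 15.1, 10.4 to 21.0), and Rtp4 had 41 against 3.59 (ratio 11.4, 8.20 to 15.5). Among the more widely seen members the ratios were smaller. Zbp1 had 69 UMIs against 11.1 (ratio 6.22, 4.84 to 7.87), Bst2 had 89 against 17.9 (ratio 4.98, 4.003 to 6.13), and Ifi203 had 171 against 51.6 (ratio 3.31, 2.84 to 3.85). Irf7 (ratio 6.87, 4.73 to 9.64) and Stat2 (ratio 5.62, 3.33 to 8.88) were higher, and Irf9 (ratio 1.95, 1.16 to 3.09) less so. Epsti1, high across the Cxcr3 gate, had a ratio of 2.42 (1.90 to 3.05). For Ddx58 the interval reached below 1 (ratio 1.72, 0.859 to 3.08). The mean number of other members seen was 7.31 per cell in these cells and 2.22 in cells with none of the 3.

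**Figure D5:**
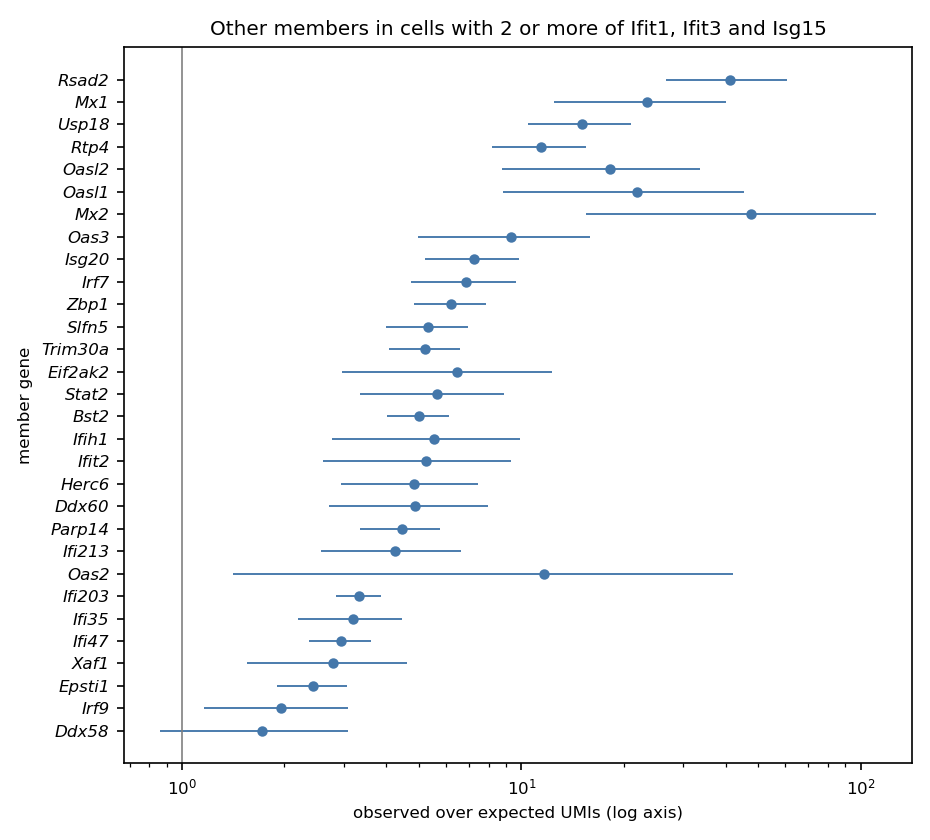
Observed over expected UMIs (x axis, log) of the 30 members with at least 1 UMI, out of the 32 not used to choose cells, in the 93 T cells with at least 2 of Ifit1, Ifit3 and Isg15, with exact 95% Poisson intervals of the observed count. Rsad2 stands at 41.2 and Mx2 at 47.6 with a wide interval, and Ddx58 is the 1 gene whose interval crosses 1.

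Genes outside the set were higher in these cells as well. Of those at 20 CPM or more in the 93 cells, a limit that several pass nowhere else, the 10 with the largest log2 ratio (prior count 0.5) were Cxcl10, Cmpk2, Ifit3b, Dhx58, Gbp6, Gm6545, Ifi204, Rnf213, Rapgef3 and Ifi206, of which Cxcl10, a chemokine ligand of CXCR3, had 49 UMIs against 2.54 expected (ratio 19.3, 14.3 to 25.5). From lists of pathway genes, counted at 10 CPM or more over all T cells, 32 of 55 other interferon-induced genes were at least 2-fold higher (median log2 1.07) and 0 at least 2-fold lower. Of all 7515 genes at that limit, 3.1% were at least 2-fold higher. Of the 21 interferon-gamma response GTPases and targets, 11 were at least 2-fold higher and 0 lower (median 1.13), among them Iigp1 (65 UMIs against 11.8). Of 7 genes of nucleic acid sensing, 2 were at least 2-fold higher, Samhd1 (118 UMIs against 53.1) and Adar (19 against 5.54), and the median was 0.79. The 11 genes of the receptor and its signal chain had a median of 0.01. Across all T cells the receptor genes Ifnar1 and Ifnar2 stood at 62.7 and 44.3 CPM and Jak1 at 335 CPM. Of 20 interferon ligand genes, Ifng (52.6 CPM) and Ifnz (13 UMIs) had UMIs in T cells, and each of the other 18, the interferon-alpha and interferon-beta genes included, had 0 of 45170218 UMIs.

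Markers of cell types were also summed in the 93 cells. Summed T cell markers stood at 6177 CPM in the cells with at least 2 of the 3 genes and 5893 CPM in the cells with none. Th1 genes stood at 4656 and 3032 CPM, of which Ccl5 made up 3833 and 2273 CPM. Of the other Th1 genes, Cxcr3 stood at 177 and 143 CPM and Nkg7 at 403 and 373 CPM. Ifng stood at 69.9 and 55.4 CPM and Ly6c2 at 102 and 85.8 CPM. Lower in the 93 cells were Tbx21 (16.1 and 31.975 CPM), Il18r1 (53.8 and 67.95 CPM) and Il12rb2 (0 and 1.75 CPM). Tbx21 and Il18r1 rest on 3 and 10 UMIs there. The Th1 sum is therefore not read as a lean towards Th1 cells. Genes of ST2-positive Tregs stood at 989 and 1686 CPM, and Treg genes at 1220 and 1497 CPM. Naive T cell genes stood at 1156 and 1088 CPM, and follicular helper genes at 296 and 207 CPM. These marker sums were pooled over hashtags and not matched by hashtag. Hashtag 5 gave 42 of the 93 cells but 2667 of the 9742 cells with none. The part of the hashtag mix in the sums was not tested. Of other lineages, macrophage genes stood at 26.9 and 45.7 CPM (5 UMIs in the 93 cells, with C1qa, Csf1r and Cd5l at 0), stromal genes at 16.1 and 30.9 CPM (3 UMIs), and B cell genes at 5.38 and 9.29 CPM (1 UMI). Endothelial genes stood at 48.4 and 16.7 CPM (9 UMIs), and their part in the result was not tested. Plasmacytoid dendritic cell genes other than the member Bst2 stood at 75.3 and 68.2 CPM. Of these, Ccr9 was higher in the 93 cells, at 48.4 and 31.4 CPM. Irf8 (16.1 and 23.6 CPM) and Tcf4 (10.8 and 12.6 CPM) were lower. Ccr9, Irf8 and Tcf4 rest on 9, 3 and 2 UMIs in the 93 cells. Siglech had 0 UMIs in the 93 cells and 0.565 CPM in the others, too low to compare.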

How the data were processed

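The deposited files held whole-number UMI counts per gene and barcode, as a filtered matrix, and counts of 10 hashing antibodies per barcode. They were made with cellranger 4.0.0 per the file headers, whereas Cell Ranger 6.0, Seurat 3 and build mm10 are given per the submitters' processing notes. Of 22960 barcodes (median 3469 UMIs), HTODemux (Seurat 5.3.0, positive quantile 0.99) called 14879 as 1 hashtag, 5804 as doublets and 2269 as none. The doublets were left out, and no further doublet caller was run. Hashtags 7 to 10 held at most 278 counts each. Barcodes under 500 genes, or with 10% or more of their UMIs from mitochondrial genes, were dropped. Counts were summed per hashtag and gate in Python 3.11.15 and divided by their UMI total. Ratios used a prior count of 0.5, and CPM 10 as the lower limit. The ratio and thinning steps were checked on simulated data. Cells of 1 library are not replicates, so no test was run. Intervals are exact Poisson for levels and Clopper-Pearson for shares of cells. The members, gene lists and gates were chosen with earlier results of these data known. All 35 members are accounted for, with values in every hashtag for those at 10 CPM or more in at least 1 gate, and from each further list up to 4 genes. Alternatives were the top hashtag at 3 times the second, 1000 genes with 5% mitochondrial UMIs, TMM factors (edgeR 4.0.16), a prior count of 2, no limit on level, 4 naive genes, thinning, leaving out each hashtag and, added after the data were seen, an Il1rl1 gate at 2 UMIs. Gene positions and promoters are from RefSeq GRCm38.p6. A gene of the receptor and signal chain list is not reported here.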

Additional observations from a re-analysis of the deposited data

Results flagged for a closer look

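The share of cells with at least 2 of Ifit1, Ifit3 and Isg15 was also measured in barcodes that the comparisons left out, thinned to the same depth. It was 0.864% of 5092 T-gated barcodes called as hashtag doublets and 1.72% (1.11% to 2.55%) of 1393 T-gated barcodes with no hashtag call. It was 0.693% (3 cells) of 433 barcodes with 1 hashtag outside the T cell and other lineage gates, and 0.865% of T cells with 1 hashtag. The barcodes outside the T cells with 1 hashtag are given because such cells appear in data that no comparison used, and no difference between the classes was tested.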

How the results depend on the processing

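Alternatives were run for the medians of the members and for the share of cells with at least 2 of Ifit1, Ifit3 and Isg15, 96 values in all, of which 83 kept direction and size. The Il1rl1 medians stayed below 0 throughout, from -0.35 to -0.24 against the naive gate and from -0.47 to -0.27 against the Cxcr3 gate when each hashtag was left out. TMM factors turned the Foxp3 (without Il1rl1) median to -0.017 and the Cxcr3 median to -0.093 against the naive gate, and put the Cxcr5 median at -0.38. The median of Foxp3 cells against other T cells was near 0 and turned to 0.15 with a prior count of 2, 0.026 with 1000 genes and 5% mitochondrial UMIs, 0.040 in thinned cells and 0.051 without hashtag 2 (leave-one-out range -0.11 to 0.051). The Cxcr5 median turned to 0.12 in thinned cells and 0.029 without hashtag 6 (leave-one-out -0.14 to 0.029). The cause was not tested. Leaving out each hashtag gave 0.12 to 0.38 for the Foxp3 gate and 0.06 to 0.13 for the Cxcr3 gate against the naive gate. The share of cells with at least 2 of the 3 genes was 0.609% at 1500 UMIs, 1.70% in cells not thinned and 0.167% when all 3 genes were required, each by construction, and 0.663% to 0.944% when each hashtag was left out. The median of the other members in those cells was 2.25 to 2.36 with each hashtag left out. Members called per comparison ranged over alternatives from 0 to 4 (Il1rl1 against naive), 1 to 5 (Il1rl1 against Cxcr3), 0 to 2 (Cxcr3 against naive), 0 to 3 (Foxp3 without Il1rl1 against naive), 1 to 2 (Foxp3 against other T cells) and 0 to 6 (Cxcr5 against naive). Against the main setting, 42 of these counts were alike, 30 were higher and 2 were lower. With no limit on level, members under 10 CPM could be called. The share of all genes called was not measured under the alternatives, so these counts have no background and are not read as results about the members. No paired analysis was possible because both libraries read the same pool of cells and the labels number no replicates that groups share, while ratios between gates were already taken within each hashtag. Rare members rest on few UMIs, which limits their ratios.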
